A study of Homo sapiens with 4 samples.

Results

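The collagen processing and crosslinking enzymes examined here are 10 genes taken by name: the prolyl 4-hydroxylase alpha subunits P4HA1, P4HA2 and P4HA3, the lysyl hydroxylases PLOD1, PLOD2 and PLOD3, the lysyl oxidases LOX, LOXL1 and LOXL2, and the collagen chaperone SERPINH1. All 10 were found by gene ID among the 17041 genes with expression values, and 2 of the 3768 splicing events with values lay in one of them, P4HA2. RNA came from A549, an established human lung adenocarcinoma cell line. There were 2 libraries of cells labelled RBM10 wild type and 2 libraries of RBM10 knockdown cells, in which a lentivirus delivered 1 shRNA that targets the splicing regulator RBM10. The knockdown cells were a puromycin-selected population (1 µg/mL, 10 to 14 days), not a clone. All 4 libraries carry the same batch label and were polyadenylated RNA, per the labels. No label says that wild-type cells were given a control virus or the drug, so RBM10 loss, transduction and selection cannot be told apart. The replicates are not stated to be separate cultures, and the p-values therefore measure the spread between 2 libraries a group, which may be technical.

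Collagen chains are modified and folded in the endoplasmic reticulum before they are secreted. Prolyl 4-hydroxylase makes the hydroxyproline that keeps the triple helix stable at body temperature, and lysyl hydroxylases make the hydroxylysine to which sugars and crosslinks attach. SERPINH1, also called HSP47, holds the folded helix during export. Outside the cell, lysyl oxidases oxidise lysine and hydroxylysine and so start the crosslinks between molecules. In lung adenocarcinoma these enzymes are known for their part in stiffening the tumour matrix.

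Expression was read as RPKM, reads scaled by a gene length and by library depth. Relative to the deepest library, depth ran from 84.5% to 100%. RBM10 itself was at 35.5 and 40.8 RPKM in wild type, against 11.6 and 10.9 RPKM in knockdown, in the direction the labels give. Keratin and EPCAM transcripts marked all 4 libraries as epithelial. The sum of 4 epithelial markers was 1220 to 1348 RPKM in wild type and 2426 to 2529 RPKM in knockdown. Nearly all of it was KRT8 and KRT18. By the test described below, 3 of the 4 were called higher, as were 15.3% of all tested genes, and CDH1 was not called. Of 6 fibroblast markers, DCN and DPT were not analysed here. The other 4 summed to 0.561 to 0.838 RPKM in wild type and 2.01 to 2.11 RPKM in knockdown, with most of the sum in THY1. All 4 were higher in both knockdown libraries, an arrangement that 34.3% of all tested genes showed. Those other than THY1 were at most 0.177 RPKM in any library and were not tested. A single leukocyte marker of 4 had values, CD14 at 0.167 to 0.391 RPKM, and a single endothelial marker of 3, PECAM1 at 0.00482 to 0.0130 RPKM. The part of these markers in the results on the enzymes was not tested.

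Among the 10 enzyme genes, 3 rose with RBM10 knockdown: P4HA3, SERPINH1 and P4HA2. In bulk RNA, more transcripts per cell and more cells that carry them cannot be told apart. None of the other 5 tested genes passed the test, and LOX and LOXL1 lay below the level at which genes were tested, a mean of 1 RPKM in at least 1 group. The test was limma on log2(RPKM + 1), and a gene was called at a Benjamini-Hochberg adjusted p under 0.05 over all 10182 tested genes. Of all tested genes, 15.3% were called higher and 7.03% lower, beside 3 higher and 0 lower of the 8 tested enzymes. All 8 had a positive log2 change, with a median of 0.17 against 0.02 over all tested genes. That shared sign did not hold in every setting: PLOD3 and LOXL2 were at -0.0110 and -0.0162 when libraries were scaled by TMM-like factors (a trimmed mean of gene ratios), and P4HA1 and PLOD2 at -0.0381 and -0.0307 without wild-type replicate 2. In 4 of the 8 tested enzymes (P4HA2, P4HA3, PLOD1 and SERPINH1) both knockdown libraries lay above both wild-type libraries, an arrangement that 34.3% of all tested genes showed, and in 0 of 8 did both lie below (27.3% of all tested genes).

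**Figure D1:**
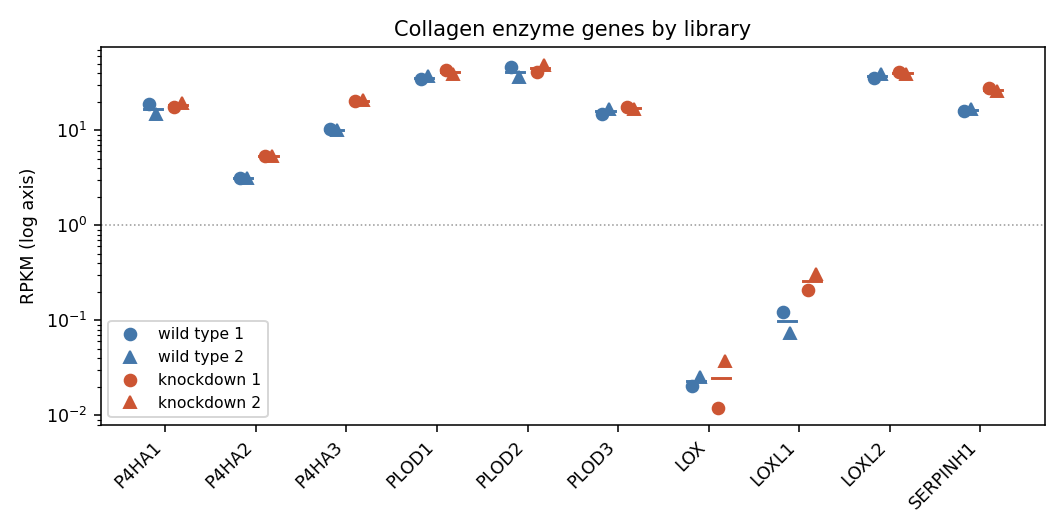
RPKM of the 10 enzyme genes in each library on a log axis; circles are replicate 1, triangles replicate 2, short lines the group means (n = 2), and the dotted line is 1 RPKM. P4HA2, P4HA3, SERPINH1, PLOD1 and LOXL1 separate by group, PLOD1 by little, while LOX and LOXL1 lie far below the other 8 genes.

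The levels spanned a wide range. In wild type the highest means were those of PLOD2, LOXL2 and PLOD1, at 41.1 ± 6.89, 37.4 ± 2.64 and 35.9 ± 1.58 RPKM (SD, n = 2), which overlap within their spread. P4HA1, SERPINH1 and PLOD3 followed at 16.9 ± 3.0, 16.4 ± 0.420 and 15.8 ± 1.29 RPKM, again within each other's spread. P4HA3 at 10.2 ± 0.212 RPKM and P4HA2 at 3.17 ± 0.0277 RPKM stood below them and apart from each other. LOXL1 and LOX came last, at 0.0980 ± 0.0337 and 0.0231 ± 0.00347 RPKM. In knockdown SERPINH1 and P4HA3 moved to 26.8 ± 1.07 and 20.4 ± 0.328 RPKM, above P4HA1 at 18.5 ± 1.43 RPKM and PLOD3 at 17.1 ± 0.545 RPKM. This order between genes rests on the length divisor of the deposited values. Reads recovered from these values are the smallest whole numbers that keep a gene's ratios, so any factor shared by all 4 libraries is lost. With GENCODE v29 exon lengths and recovered reads per kilobase at the depth of the deepest library, P4HA2 was at 289 and 285 in wild type. In knockdown SERPINH1 was at 596 and 563 on that scale, against P4HA1 at 617 and 688. P4HA3 is not ranked on it. Its divisor was 0.499 relative to GENCODE length and the median tested gene, as a lost factor of 2 would give.

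The prolyl 4-hydroxylase alpha subunits carry the catalytic site and each pairs with the shared beta subunit P4HB. P4HA3 was at 10.4 and 10.1 RPKM in wild-type replicates 1 and 2 and at 20.2 and 20.7 RPKM in knockdown replicates 1 and 2. Both knockdown libraries thus lay well above both wild-type libraries, with little spread within a group. The mean was 2.0 times higher in knockdown, and the log2 change on the log2(RPKM + 1) scale was 0.94 (SE 0.10, 95% interval 0.71 to 1.16; limma adjusted p = 0.000185). Among the 8 tested enzymes it was the largest change on this scale. The gene lies on chromosome 11 (hg38, 74235801 to 74311657, minus strand) and overlaps PPME1 and P4HA3-AS1 on the other strand.

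P4HA2 was at 3.19 and 3.15 RPKM in wild type, against 5.35 and 5.33 RPKM in knockdown. The replicates of each group nearly coincided and the groups were apart. The mean rose 1.68 times, with a log2 change of 0.60 (SE 0.109, 95% interval 0.36 to 0.85; limma adjusted p = 0.00381). With a pseudocount of 5 in place of 1 the log2 change of P4HA2 was 0.34, and it still passed.

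P4HA1, the most widely expressed alpha subunit, was at 19.0 and 14.8 RPKM in wild type, against 17.5 and 19.6 RPKM in knockdown. The groups overlapped, with wild-type replicate 2 the lowest library. Its log2 change of 0.13 (95% interval -0.16 to 0.42; limma adjusted p = 0.504) did not pass the test, and without wild-type replicate 2 the estimate was -0.038. The beta subunit P4HB, which also serves the cell as protein disulfide isomerase, was far more abundant than any alpha subunit, at 152 and 159 RPKM in wild type and 165 and 164 RPKM in knockdown (adjusted p = 0.560 in limma).

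The makeup of the alpha subunits differed between the groups. P4HA1 held 58.4% and 52.9% of the summed RPKM of the 3 alpha subunits in wild type and 40.7% and 42.9% in knockdown. P4HA3 held 31.8% and 35.9% in wild type and 46.9% and 45.4% in knockdown, so that P4HA3 was ahead of P4HA1 in both knockdown libraries and behind it in both wild-type libraries. P4HA2 took the smallest share throughout, 9.79% and 11.2% against 12.4% and 11.7%. For each of these shares the exact permutation test over the 4 libraries gave p = 0.333 (two-sided), the smallest p that this design allows.

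The share of P4HA2 rests on the length by which its reads were divided. The deposited values could be turned back into whole reads, which for P4HA2 numbered 2431 and 2425 in wild type and 3480 and 3918 in knockdown. For P4HA1 they numbered 2053, 1612, 1613 and 2036, in the same order of libraries. For P4HA3 the smallest whole numbers that fit were 724, 710, 1205 and 1395, and such numbers lose any factor shared by all 4 libraries. P4HA2 thus had more reads than P4HA1 in every library, and its lower RPKM came with a length divisor 7.07 times that of P4HA1. By the exon bases of GENCODE v29 that factor was 2.75. For P4HA3 the 2 factors were 0.649 and 1.30, as a lost shared factor of 2 in its reads would give. With GENCODE lengths and these smallest numbers, the mean shares of P4HA1, P4HA2 and P4HA3 were 55.9%, 27.1% and 17.0% in wild type. In knockdown they were 43.6%, 32.3% and 24.1%. P4HA1 stayed ahead of P4HA2 in both groups. The share of P4HA3 would be larger, and the other shares smaller, if its reads lack a factor, so its rank is not settled. A ratio of RPKM between the groups within 1 gene does not depend on the divisor, but the log2 change on the log2(RPKM + 1) scale and the limit of 1 RPKM do.

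**Figure D2:**
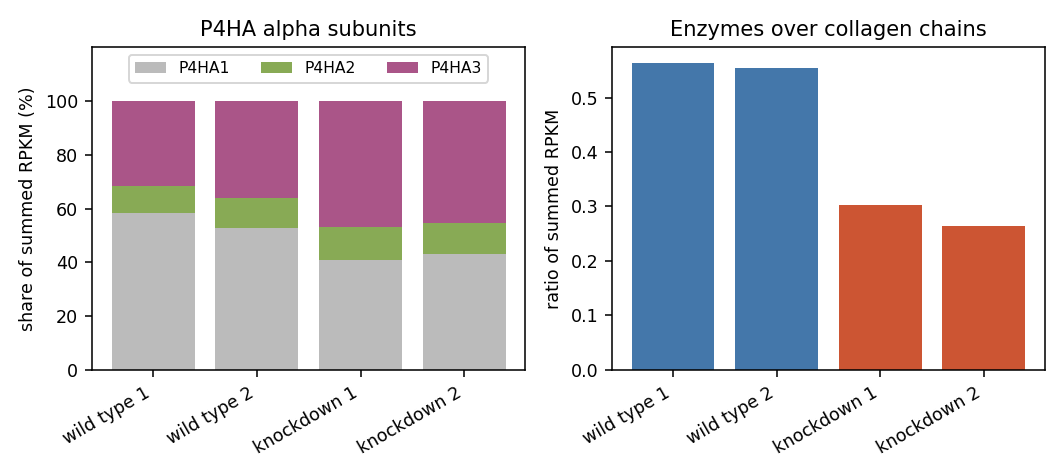
Left, share of each alpha subunit in the summed RPKM of P4HA1, P4HA2 and P4HA3 (%), per library. Right, summed RPKM of the 10 enzyme genes divided by the summed RPKM of 14 collagen chain genes, per library; the ratio was 0.564 and 0.553 in wild type and 0.303 and 0.265 in knockdown.

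P4HA2 was the only enzyme with listed splicing events, and both of its events concern the same pair of alternative exons. A 60-base exon (chr5:132198321-132198380) and a 66-base exon (chr5:132198206-132198271) lie 49 bases apart on the minus strand of hg38. In GENCODE v29, each is found in 3 of the 6 P4HA2 transcripts that carry both neighbouring exons, and 0 transcripts carry both. Both exons are coding and keep the reading frame, with 20 and 22 codons. Their sequences, 5′ to 3′ on the transcript strand, are printed because the choice between them is what the events measure; capitals mark the 35 bases that are identical among 59 aligned ones (59.3%).
P4HA2 60-base exon: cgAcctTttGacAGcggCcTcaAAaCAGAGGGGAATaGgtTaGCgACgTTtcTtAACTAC
P4HA2 66-base exon: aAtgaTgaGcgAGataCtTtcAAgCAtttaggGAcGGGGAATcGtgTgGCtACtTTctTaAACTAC
The capitals crowd toward the 3′ end, where both exons finish on the same 6 letters, AACTAC.

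Splicing was read as PSI, the share of reads that use an examined junction among the junctions of its event. The junction from the upstream exon (132198879 to 132198932) into the 60-base exon had a PSI of 59.9% and 68.6% in wild-type replicates 1 and 2 and of 50.7% and 49.2% in knockdown. The junction from the 66-base exon to the downstream exon (132195412 to 132195480) had a PSI of 41.7% and 38.1% in wild type and of 52.3% and 58.8% in knockdown. Wild-type libraries used the 60-base exon more than the 66-base exon, and in knockdown the PSI of the 66-base exon was the higher one, by little in replicate 1. The groups did not overlap in either event, as in 54.2% of the 3744 tested events.

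Neither event passed the test. The PSI of the 60-base exon differed by -14.3 percentage points in knockdown (95% interval -35.1 to 6.63 points), with an unadjusted p of 0.148 and an adjusted p of 0.339 in limma. The PSI of the 66-base exon differed by 15.6 points (95% interval -5.0 to 36.3 points), with an unadjusted p of 0.114 and an adjusted p of 0.307. Calls needed an adjusted p under 0.05 together with a fraction that differed by at least 0.1. Over all tested events 0.107% were called, and 18.4% would be by the unadjusted p. The 2 events use the same reads in part and are not independent, and their PSI summed to 102% to 108% in a library, since each is taken over its own set of junctions. The depth behind each PSI is unknown.

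The exon choice was set beside the rise in P4HA2 RNA. RPKM multiplied by PSI gave 1.91 and 2.16 for the 60-base form in wild type and 2.72 and 2.62 in knockdown, 1.31 times higher in the mean. For the 66-base form it gave 1.33 and 1.20 in wild type and 2.80 and 3.13 in knockdown, 2.34 times higher. The 66-base form was the lesser one in both wild-type libraries and the greater one in both knockdown libraries. These products are a description without a test. GENCODE v29 also holds 1 such pair of alternative exons for P4HA1 and 0 for P4HA3, but the table lists only events whose PSI spread over the libraries is 0.15 or more, and it lists none for the other 9 enzymes.

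**Figure D3:**
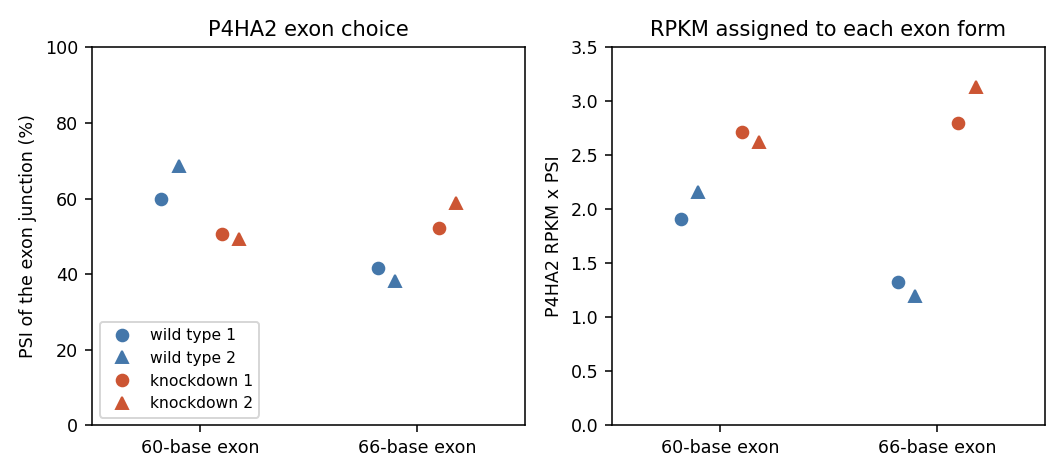
Left, PSI (%) of the junctions of the 60-base and the 66-base exon of P4HA2 in each library. Right, P4HA2 RPKM multiplied by each PSI; the 66-base form rises from 1.33 and 1.20 in wild type to 2.80 and 3.13 in knockdown, and neither PSI difference passed the test.

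SERPINH1, the chaperone that binds folded procollagen, was at 16.1 and 16.7 RPKM in wild type, against 27.6 and 26.1 RPKM in knockdown, from 2163, 2265, 3161 and 3382 reads. The groups were well apart. Its mean was 1.64 times higher in knockdown, with a log2 change of 0.68 (SE 0.0993, 95% interval 0.45 to 0.90; limma adjusted p = 0.00119). The gene lies on chromosome 11 (hg38, 75562056 to 75572783, plus strand), with no annotated gene on the other strand.

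SERPINH1 is a known target of the heat shock response, and its start region was searched for that factor's element. RefSeq promoter windows (GRCh38.p14, 250 bases before to 50 after a start) were matched for 8 of the 10 genes, 11 windows in all, and P4HA3 and LOXL2 had none. The element, TTC-NN-GAA-NN-TTC with N for any base, searched on both strands, was found in 1 window, that of SERPINH1 at 76 bases before a start, and in 0.49% of all 35116 windows. The stretch that holds it (plus strand, 5′ to 3′, capitals mark the element) is shown because no other enzyme window held a match.
SERPINH1 chr11:75562169-75562198: ttccaactTTCCAGAAGTTTCtcgggacgg
The letters ACGTG, the core of the hypoxia response element, were in windows of 4 of the 8 genes (LOX, P4HA1, PLOD2 and SERPINH1) and in 21.4% of all windows, and GCGTG, its other form, in windows of 4 genes and 36.5% of all windows. TATAAA was in the window of P4HA1 alone (11.5% of all windows), and CCAAT in windows of 4 genes (34.6%). Some genes have more than 1 window, so gene counts and shares of windows are unlike units. Of the 11 windows, some of which overlap, ACGTG was in 7, GCGTG in 5 and CCAAT in 4. A match of letters describes the window and does not show that a factor binds there.

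The lysyl hydroxylases act on different parts of the chain: PLOD1 on helical lysines, PLOD2 on the telopeptides at the chain ends, and PLOD3 also adds sugars. PLOD1 was at 34.7 and 37.0 RPKM in wild type, against 43.2 and 39.7 RPKM in knockdown. Both knockdown libraries were the higher ones, but the log2 change of 0.20 (SE 0.0993, 95% interval -0.02 to 0.43) did not pass limma (adjusted p = 0.175). It passed in 1 of 15 alternative settings, a block that pairs the replicates crosswise (adjusted p = 0.0305 in limma), under which 2466 genes were called higher overall in place of 1555. PLOD2 was at 46.0 and 36.2 RPKM in wild type, against 41.0 and 49.3 RPKM in knockdown, with a log2 change of 0.14 (95% interval -0.16 to 0.44; limma adjusted p = 0.505). Its groups overlapped, with the lowest library in wild type and the highest in knockdown, and without wild-type replicate 2 the estimate was -0.031. PLOD3 was at 14.9 and 16.7 RPKM in wild type, against 17.4 and 16.7 RPKM in knockdown, with a log2 change of 0.11 (95% interval -0.13 to 0.34; limma adjusted p = 0.514). PLOD2 made up 48.1% and 40.3% of the summed RPKM of the 3 genes in wild type and 40.3% and 46.7% in knockdown, so its share did not separate the groups (exact permutation p = 1, two-sided).

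LOXL2 was nearly the only lysyl oxidase of the 3 in these cells, with 99.6% and 99.7% of their summed RPKM in wild type and 99.5% and 99.1% in knockdown. It is a secreted oxidase that is known for basement membrane collagen. LOXL2 was at 35.6 and 39.3 RPKM in wild type, against 41.6 and 39.0 RPKM in knockdown. The groups overlapped, and the log2 change of 0.11 (95% interval -0.12 to 0.33; limma adjusted p = 0.496) did not pass.

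LOX, the founding member of the family, gave only 4 and 5 reads in wild type and 2 and 7 in knockdown, at 0.0121 to 0.0374 RPKM. The depth-adjusted ratio of knockdown to wild type was 1.11, with a 95% interval of 0.389 to 3.14 that covers counting error only, so a difference was not detectable at this depth. LOXL1, which is known for elastin crosslinking, gave 13 and 8 reads in wild type and 19 and 32 in knockdown. Both knockdown libraries were the higher ones, at 0.209 and 0.311 RPKM against 0.122 and 0.0742 RPKM. The ratio of LOXL1 reads was 2.68 (95% interval 1.59 to 4.70, counting error only), which compares these libraries and not the conditions. In limma without a filter on low values the log2 change of LOXL1 was 0.20, at an adjusted p of 0.0905.

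Replicates deviated in a pattern that the labels do not explain. In P4HA1, PLOD2 and, by little, P4HA3, wild-type replicate 1 and knockdown replicate 2 were the higher library of their group. In PLOD1, PLOD3, LOXL2 and SERPINH1 they were the lower one. P4HA2 departed from this, with replicate 1 the higher library in both groups by little. Over all tested genes the deviations of same-numbered libraries from their group means had a correlation of -0.44 (10182 genes, which are not independent replicates). The 3 enzymes that rose did so without overlap of the groups, and they passed in all 15 alternative settings tried, with every library left out in turn among these.

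The pattern of P4HA3, which had the largest log2 change of the 8 tested enzymes, was set against all tested genes by the root mean square difference of log2(RPKM + 1) over the 4 libraries, each gene centred on its own mean. The 3 nearest genes were CRYAB, a small heat shock protein, at a difference of 0.0121, TRABD2A, a membrane metalloprotease, at 0.0124, and ETS2, a transcription factor, at 0.0168. CRYAB was at 0.396 and 0.383 RPKM in wild type and 1.59 and 1.67 RPKM in knockdown. TRABD2A was at 0.466 and 0.445 RPKM and at 1.80 and 1.86 RPKM, and ETS2 at 11.1 and 10.95 RPKM and at 21.2 and 21.9 RPKM. At such low levels the added 1 RPKM shrinks the log2 change, so CRYAB and TRABD2A rose by a larger RPKM ratio than P4HA3. Both were tested only through their knockdown level.

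The other genes of the collagen pathway were 28 by list, of which 24 had values and 20 were tested. In limma 7 were called higher and 1 lower in knockdown, beside 15.3% and 7.03% of all tested genes, with a median log2 change of 0.13. Of those called higher, PCOLCE, LOXL4 and CREB3L1 had wild-type means under 1 RPKM and were tested only through their knockdown level. They could enter the test only by a higher knockdown mean, so the filter favoured their calls. With a filter at a mean of 5 RPKM, 4 of 15 tested genes were called higher. The higher genes numbered 4 without wild-type replicate 2 and 4 without knockdown replicate 1, and the lower ones 0 without knockdown replicate 2. Levels below are group means in RPKM. BMP1, the protease that cleaves the C-terminal propeptide and also activates lysyl oxidase, rose from 9.29 to 20.6 (log2 change 1.07; limma adjusted p = 0.000116). PCOLCE, which enhances that cleavage, was at 0.774 in wild type and 1.36 in knockdown (adjusted p = 0.0342 in limma), whereas PCOLCE2 was at 9.92 and 9.26 (adjusted p = 0.585). P3H3, a partner of lysyl hydroxylase in the endoplasmic reticulum, rose from 13.1 to 22.5 (log2 change 0.75; limma adjusted p = 0.00141), and CRTAP, of the prolyl 3-hydroxylase complex, from 27.3 to 34.7 (log2 change 0.34; limma adjusted p = 0.0318).

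COLGALT1, which adds galactose to hydroxylysine, went the other way, at 19.99 and 22.9 RPKM in wild type and 15.4 and 14.2 RPKM in knockdown (log2 change -0.51; limma adjusted p = 0.0101). LOXL4, a further lysyl oxidase, was at 0.605 in wild type and 1.14 in knockdown (limma adjusted p = 0.0212), so its mean level was above those of LOX and LOXL1 and far below that of LOXL2. Among the genes of procollagen export, SEC23A, a coat protein of export vesicles, rose from 22.5 to 29.1 (limma adjusted p = 0.0486). CREB3L1, a transcription factor of the endoplasmic reticulum known to drive collagen secretion, was at 0.112 and 0.128 RPKM in wild type, against 1.92 and 1.91 RPKM in knockdown (log2 change 1.38; limma adjusted p = 2.45e-05). Folding partners did not pass, among them the prolyl isomerase PPIB at 242 and 247 (adjusted p = 0.838 in limma) and FKBP10, a chaperone that acts with PLOD2, at 29.97 and 29.6 (adjusted p = 0.938). TLL1, ADAMTS2, ADAMTS3 and ADAMTS14 were not analysed here.

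**Figure D4:**
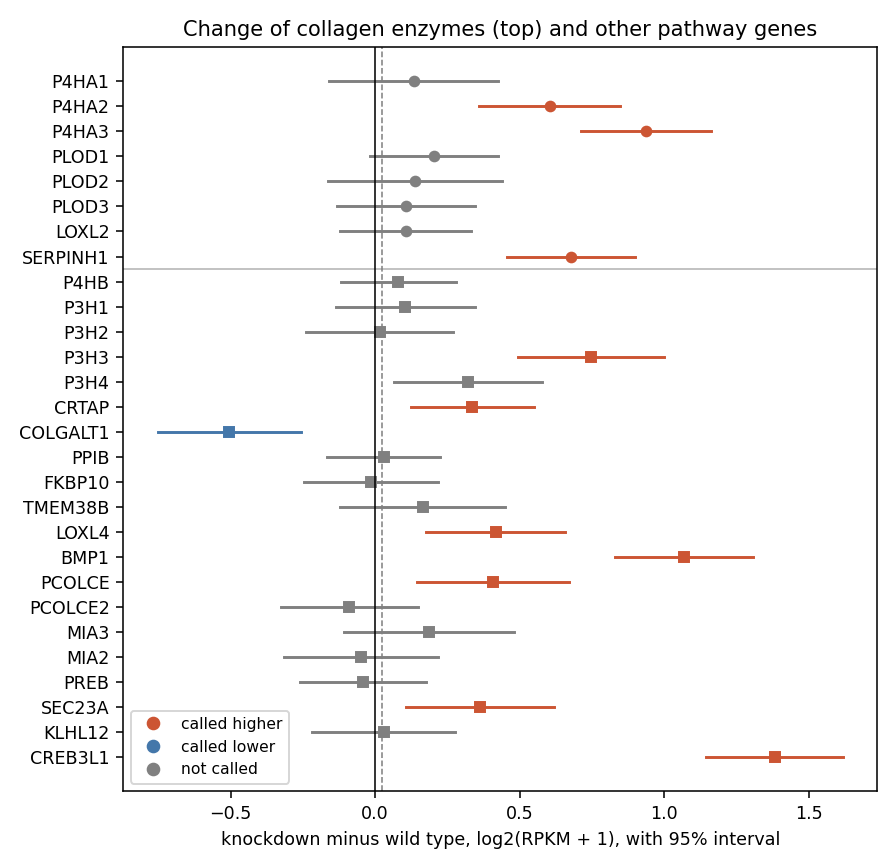
Change in knockdown on the log2(RPKM + 1) scale with its 95% interval, for the 8 tested enzymes (circles, above the line) and 20 other pathway genes (squares); the dashed line is the median of all tested genes, 0.02. P4HA2, P4HA3 and SERPINH1 lie above 0.5, the other 5 enzymes have intervals that include 0, and COLGALT1 is the only gene called lower.

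The enzymes were then set against their substrates. Of 12 tested chains of fibrillar and basement membrane collagens, 11 were called higher and 0 lower (15.3% and 7.03% of all tested genes), with a median log2 change of 1.62. COL4A3, among those called higher, was tested only through its knockdown mean of 4.71 RPKM, against 0.842 RPKM in wild type. The fibrillar chain COL3A1 rose from 1.61 to 17.2 RPKM and COL1A1 from 3.65 to 18.5 RPKM, and the basement membrane chain COL4A1 rose from 19.8 to 69.1 RPKM. COL27A1, named as the exception after its values were seen, was at 4.44 and 4.0 RPKM (adjusted p = 0.528 in limma). The summed RPKM of the 10 enzymes was 180 and 174 in wild type and 214 and 217 in knockdown, 1.22 times higher in the mean. The summed RPKM of the 14 collagen chains with values was 319 and 314 in wild type and 706 and 819 in knockdown, 2.41 times higher. A single fibrillar chain, COL5A2, held most of that sum in every library, and its mean rose 1.92 times, from 203 to 390 RPKM. The ratio of enzyme to chain RPKM was thus 0.559 ± 0.00747 in wild type and 0.284 ± 0.0275 in knockdown (SD, n = 2), with no overlap of the groups (exact permutation p = 0.333, two-sided, the smallest possible). These are ratios of RNA, not of protein. The sums and their ratio mix genes, so they depend on the length divisor of each gene. GENCODE lengths were not tried for them.

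P4HA1, P4HA2, PLOD2 and LOX are known targets of hypoxia signalling, so genes of that response outside collagen processing were read beside them. Of 11 tested hypoxia genes 1 was called higher and 3 lower in limma, beside 15.3% and 7.03% of all tested genes, with a median log2 change of -0.12. The carbonic anhydrase CA9 fell from 4.90 to 1.68 RPKM (log2 change -1.14), the peptide hormone ADM from 21.3 to 10.5 RPKM (-0.97) and NDRG1 from 16.5 to 11.1 RPKM (-0.53), while the glucose transporter SLC2A1 rose from 32.0 to 47.6 RPKM (0.55). The hydroxylases need ascorbate and 2-oxoglutarate and the oxidases need copper. Of 6 tested genes of that supply 2 were called higher and 0 lower. IDH1 and IDH2, which make 2-oxoglutarate, rose from 31.2 to 47.5 RPKM and from 33.9 to 51.5 RPKM (limma adjusted p = 0.00382 and 0.00307). The ascorbate transporter SLC23A1 was at 1.71 and 1.27 RPKM and the copper transporter SLC31A1 at 3.38 and 2.92 RPKM, and neither passed (adjusted p = 0.122 and 0.431 in limma).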

How the data were processed

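The authors deposited a gene table that was read as RPKM, a unit inferred from its values because no header names it. They also deposited PSI as a fraction, per the file headers. STAR 2.6.1 and hg38 are named in the submitters' processing notes. How reads were counted (counter, annotation, length divisor, strand) and how splicing was called is not given in the sources used here. Strand matters because 8 of the 10 enzyme genes overlap a gene on the other strand (not PLOD1 or SERPINH1).

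Expression was tested on log2(RPKM + 1) by two-sided limma 3.58.1 under R 4.3.3, with a trended empirical Bayes prior and Benjamini-Hochberg adjustment, over the 10182 genes whose mean reached 1 RPKM in either group, and PSI likewise over 3744 events with 4 values. Whole-number reads, the smallest that keep each gene's depth-adjusted ratios, were recovered within 1e-06 for 99.8% of tested genes and make 26.9 to 32.1 megareads a library. Any multiple of them would fit as well, so the reads of a gene and these sums are lower bounds. Limma voom on these reads called 1615 genes higher and 731 lower (1555 and 716 in the RPKM). Exons came from GENCODE v29 and were aligned with Biopython 1.88; permutation tests used SciPy 1.17.1. The limma tests were run on simulated data first.

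Members and gene lists were chosen with earlier results of these data known. All 10 members and all their splicing events are named. Of each other list, up to 4 tested genes per role are named, not always those with the largest change. Among folding partners and fibrillar chains, genes with a larger change were passed over. Gene models are those of the deposited table, with 16921 of 17041 IDs named from a gene table and 85 from GENCODE.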

Additional observations from a re-analysis of the deposited data

How the results depend on the processing

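P4HA2, P4HA3 and SERPINH1 passed in all 15 alternatives, with adjusted p of 0.000467 to 0.0290, 5.22e-07 to 0.00880 and 0.000285 to 0.0150 in limma. Other pathway genes called higher numbered 4 in place of 7 under quantile normalization and with a filter at a mean of 5 RPKM (fewer genes tested), and 4 to 5 with a library left out; those called lower numbered 0 to 1. Direction turned for P4HA1 (-0.0381, adjusted p = 0.871, range to 0.305 with a library left out) and PLOD2 (-0.0307, adjusted p = 0.901, range to 0.305) without wild-type replicate 2, and for PLOD3 (-0.0110, adjusted p = 0.953) and LOXL2 (-0.0162, adjusted p = 0.930) with TMM-like factors; none of these 4 passed in any setting and the cause was not tested. TMM-like factors moved the median log2 change of all genes from 0.02 to -0.08 and the calls to 1238 higher and 1620 lower; quantile normalization gave 1140 and 1031. The P4HA2 share difference was 5.18 points with GENCODE lengths (1.54 as deposited), but the 5.18 rests on P4HA3 reads that may lack a factor of 2. The enzyme to chain ratio differed by -0.36 over fibrillar chains alone (-0.27 over all). The PLOD2 share difference ran from -4.58 to 3.21 points with a library left out.

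Replicate numbers are only shared numbers here, in 2 pairs. With the replicate number as a block, 3 enzymes were called higher and 0 lower, 5 pathway genes higher and 1 lower, and 0 PSI events. Of all 10182 tested genes, 1280 were called higher and 438 lower under that block. Same-numbered deviations correlated at -0.44 in expression and -0.0396 in PSI, so a crossed block was added after seeing the data: 4 enzymes (PLOD1 joined) and 8 pathway genes were called higher, as were 2466 genes in all (1730 lower). Limma voom and GENCODE lengths were also added after seeing the data. With 2 libraries a group, the 95% intervals of the 5 uncalled enzymes reach from -0.16 to 0.44, and PSI depth is unknown.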

Other observations

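Among other pathway genes, FKBP10 had a listed splicing event, singled out after its values were seen. The PSI of the junction that removes an intron was 82.7% and 79.9% in wild type and 98.7% and 98.3% in knockdown. The groups did not overlap, as in 54.2% of the 3744 tested events, and the event did not pass limma (unadjusted p = 0.0823, adjusted p = 0.282). The RPKM of FKBP10 was 28.3 and 31.7 in wild type and 30.7 and 28.6 in knockdown. An intron event of P3H1 had a PSI of 77.9% and 96.4% in wild type and of 98.9% and 80% in knockdown, so its groups overlapped.

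The length divisor implied by the recovered reads was taken relative to GENCODE v29 exon bases and to the median tested gene. It was 2.57 for P4HA2 (larger than for 98.5% of tested genes), 1.40 for LOXL2, 0.761 for PLOD2, 0.612 for SERPINH1 and 0.499 for P4HA3. P4HA1, PLOD1 and PLOD3 were at 0.998, 0.999 and 1.00. The recovery loses any factor shared by all 4 libraries, and the 0.499 of P4HA3 is what a lost factor of 2 would give. Levels of P4HA2, LOXL2, PLOD2 and SERPINH1 against one another depend on the divisor.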
